A study of Rattus norvegicus with 10 samples.

Results

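Glutathione enzymes and peroxide defence were examined as a set of 70 protein-coding genes out of 32545 genes measured by RNA sequencing in PCK rat kidney. Members were taken by symbol. The rule took the soluble glutathione S-transferases (*Gsta*, *Gstk1*, *Gstm*, *Gsto*, *Gstp1*, *Gstt* and *Gstz1*), the microsomal transferases (*Mgst*), glutathione peroxidases (*Gpx*), peroxiredoxins (*Prdx*), superoxide dismutases (*Sod*) and every symbol beginning with *Txn*. It also took *Gclc*, *Gclm*, *Gss*, *Gsr*, *Cat*, *Nqo1*, *Hmox1*, *Nfe2l2* and *Keap1*. The 70 members carried 68 symbols, since *Gsto2* and *Gstm6l* were each listed under 2 identifiers. Of these, 61 had a mean of at least 0.1 FPKM (fragments per kilobase of gene length, scaled between libraries) and entered the test between the sexes.

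The samples were kidneys of 5 male and 5 female PCK rats (PCK/CrljCrl-Pkhd1pck/Crl), with 1 library per rat. The PCK rat carries a spontaneous mutation in *Pkhd1* and is a model of autosomal recessive polycystic kidney disease. All 10 rats had that mutation, and no rat without cysts was analysed here, so the data compare sexes within cystic disease and not diseased with healthy tissue. The labels gave the tissue as kidney and the age as 12 to 14 weeks, while the study's methods gave snap-frozen renal cortex and 10 to 12 weeks. The methods described littermates from 2 litters. The litter of each rat was not used here, so litter and the differences below cannot be told apart.

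Glutathione is a small peptide that cells use to neutralise peroxides and to tag reactive compounds for export. It is made from glutamate, cysteine and glycine in successive steps by glutamate-cysteine ligase (catalytic subunit *Gclc*, modifier subunit *Gclm*) and glutathione synthetase (*Gss*), and its oxidised form is recycled by glutathione reductase (*Gsr*). Glutathione S-transferases attach it to electrophiles, and glutathione peroxidases spend it to reduce peroxides, while peroxiredoxins do the latter with electrons from thioredoxin. Superoxide dismutases supply hydrogen peroxide from superoxide and catalase breaks it down. Many of these genes are induced by the transcription factor NRF2 (*Nfe2l2*), which KEAP1 holds in check. The proximal tubule is known for high glutathione turnover and is the main source of the secreted peroxidase GPX3.

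Reads assigned to genes, recovered from the FPKM values, numbered 13912569 to 20285911 per library. Mitochondrial genes took 26.8% of reads in female 2 and 14.3% to 19.1% in the other 9 libraries, and some counts and calls are also given without female 2. All 9 proximal tubule markers were read, with summed levels of 2195 to 3360 FPKM in the males and 1842 to 3538 FPKM in the females. Some marker lists for other cells lay apart between the sexes. The 6 fibroblast markers summed to 264 to 350 FPKM in the males and 86.5 to 247 FPKM in females (1 of 6, *Col3a1*, passed the test as lower, with 6 of 6 below 0 and at an unadjusted p under 0.05 and 3 called by limma-voom), and the 5 intercalated cell markers summed to 134 to 205 FPKM in the males and 215 to 337 FPKM in the females (1 of 5, *Atp6v0d2*, passed as higher, with 5 of 5 above 0 and at an unadjusted p under 0.05 and 1 called by limma-voom). In whole tissue, fewer cells of a type and less RNA per cell cannot be told apart, and the part of cell makeup in the differences between the sexes was not tested.

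In female PCK rats, 3 of the 61 tested members were higher than in males and 0 were lower (limma on log2(FPKM + 0.1), adjusted p at most 0.05). The 3 were *Sod3*, the extracellular superoxide dismutase, *Gsta3*, an alpha class transferase, and *Gsto1*, an omega class transferase with thioltransferase and dehydroascorbate reductase activity. Over all 17631 genes tested, 2.40% passed in either direction, 1.26% as higher and 1.14% as lower in females. *Sod3* and *Gsta3* also passed a log2 fold change of at least 1, as did 1.32% of all genes tested (0.618% as higher). At an unadjusted p under 0.05 limma gave 9 members higher and 4 lower, where 15.7% of all genes passed (7.67% as higher and 8.07% as lower), and limma-voom on the recovered reads called the same 3 members higher and 0 lower at adjusted p, where 1.08% of all genes were higher and 1.80% lower. Without female 2, 20 members had an unadjusted p under 0.05, 6 of them lower, beside 19.8% of all genes. The remaining 58 tested members did not pass.

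**Figure D1:**
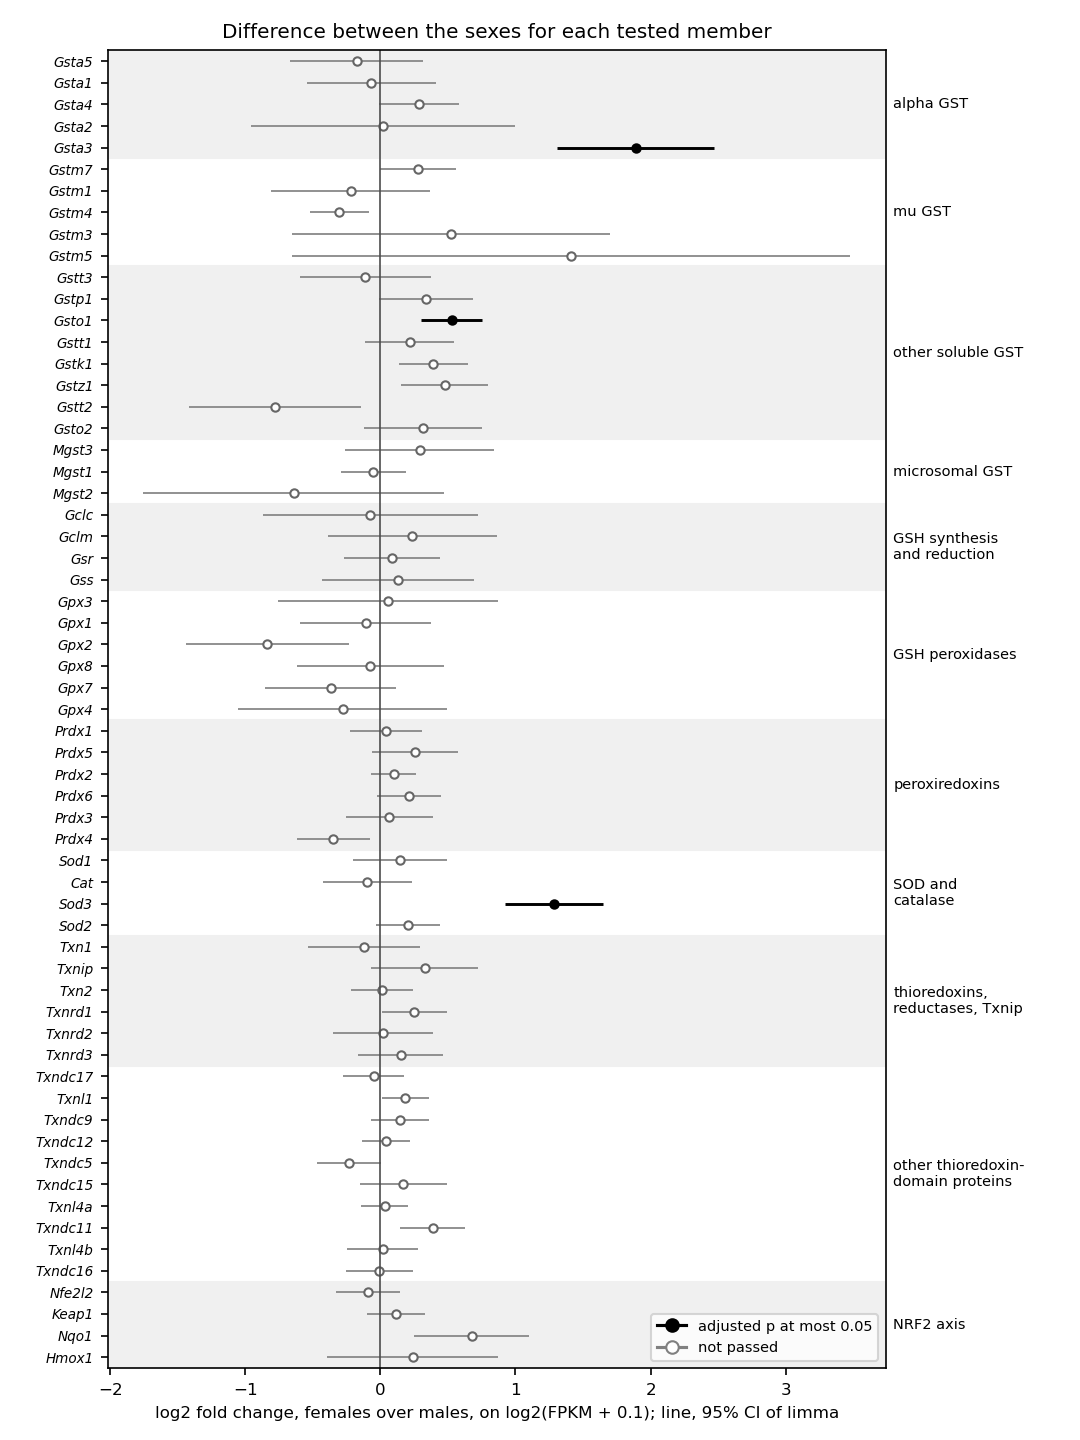
Difference between the sexes for each of the 61 tested members, grouped by role. Points give the log2 fold change of females over males on log2(FPKM + 0.1) and lines its 95% confidence interval from limma with 5 rats per sex. Filled points are the 3 members with adjusted p at most 0.05, *Sod3* at 1.29, *Gsta3* at 1.89 and *Gsto1* at 0.53, and all 3 lie to the right of 0.

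*Sod3* encodes the superoxide dismutase that acts outside the cell, and its gene lies at chr14:60958592-60964324 on the minus strand (Rnor_6.0). Its levels were 195, 194, 224, 222 and 149 FPKM in males 1 to 5. In females 1 to 5 they were 367, 393, 506, 559 and 597 FPKM. Every female was above every male, and the lowest male, male 5, stood below the other 4 males. The means were 197 ± 30.5 FPKM in the males and 484 ± 101 FPKM in the females (SD, n = 5 each). The limma estimate on log2(FPKM + 0.1) was a log2 fold change of 1.29 ± 0.16 (SE), or 2.44-fold, with adjusted p = 0.00188. The exact permutation test of the mean FPKM, two-sided, gave p = 0.00794, the smallest that 5 rats against 5 allow.

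The other members that handle superoxide and its product did not pass. *Sod1*, the cytosolic copper-zinc enzyme, was at 718 ± 103 FPKM in the males and 797 ± 143 FPKM in the females (log2 fold change 0.14, 95% confidence interval -0.20 to 0.49, adjusted p = 0.720). *Sod2*, the mitochondrial manganese enzyme, was at 141 ± 14.4 and 163 ± 19.8 FPKM (0.20, interval -0.03 to 0.44, adjusted p = 0.392). *Cat*, the peroxisomal enzyme that splits hydrogen peroxide, was at 408 ± 72.6 and 381 ± 59.2 FPKM (-0.10, interval -0.43 to 0.24, adjusted p = 0.820). The ranges of all 3 overlapped between the sexes. Per gene length, *Sod3* ranked below *Sod1* and *Cat* in males, and in females its mean of 484 FPKM stood above the 381 FPKM of *Cat*, with overlapping ranges. Whether the difference of *Sod3* differs from that of *Sod1* or *Sod2* was not tested.

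*Gsta3* had the highest fitted log2 fold change of the 61 tested members on log2(FPKM + 0.1), a scale that understates the change of low genes. Its levels were 7.68, 11.8, 7.09, 5.99 and 12.0 FPKM in males 1 to 5, and 31.1, 19.3, 28.2, 41.5 and 47.8 FPKM in females 1 to 5. All 5 females were above all 5 males, with female 2 nearest to them. The means were 8.92 ± 2.80 FPKM in the males and 33.6 ± 11.2 FPKM in females (fitted log2 fold change 1.89 ± 0.26 SE, or 3.70-fold, limma adjusted p = 0.0031, exact permutation p = 0.00794). Behind them stood 131 to 281 reads in each male and 349 to 976 in each female. The gene lies at chr9:27402381-27417023 on the plus strand (Rnor_6.0), wholly inside the span of *Gsta1* on the minus strand. The strand setting of the counting was not given in the sources used here, so reads of the pair may be shared, and alpha class genes are close copies of each other. *Gsta1* itself, at 259 ± 66.1 FPKM in the males and 250 ± 69.7 FPKM in females, did not follow *Gsta3* (log2 fold change -0.07, interval -0.55 to 0.41).

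The promoter of *Gsta3* is shown because it holds, close to the start of the gene, the core letters of the antioxidant response element through which NRF2 acts. The letters TGACNNNGC (N, any base) were searched on both strands of the 250 bases before each start in RefSeq (build GRCr8, whose coordinates are not those of the table), and they can contain the AP-1 letters TGACTCA. They stood in 10.1% of all 33469 windows and in 12 of the 58 member symbols with a window. The 58 symbols had 64 windows, and a symbol was counted if any of its windows had a match. The counts by window and by symbol are therefore not on the same footing. TGACTCA stood in 4.05% of all windows and in 3 of the 58. A match of these letters is a description and not a binding site. Members that did not pass also had a match, among them *Gpx2* (13 bases before the start), *Sod2* and *Txnrd1*. *Sod3* had no window. The window of *Gsta3* is chr9:31154739-31154988, plus strand, and capitals mark the letters searched, 17 bases before the start. Windows were matched to members by symbol and chromosome and not by gene identifier. RefSeq gives *Gsta3* 2 windows, and the other had no match. The window of *Gsto1*, chr1:256662281-256662530, plus strand, had none and is given for comparison as the other transferase past the test.
Gsta3: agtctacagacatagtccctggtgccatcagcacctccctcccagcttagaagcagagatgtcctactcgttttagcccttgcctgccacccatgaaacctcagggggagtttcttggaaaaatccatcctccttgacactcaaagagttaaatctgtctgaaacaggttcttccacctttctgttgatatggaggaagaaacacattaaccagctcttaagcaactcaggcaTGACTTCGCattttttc
Gsto1: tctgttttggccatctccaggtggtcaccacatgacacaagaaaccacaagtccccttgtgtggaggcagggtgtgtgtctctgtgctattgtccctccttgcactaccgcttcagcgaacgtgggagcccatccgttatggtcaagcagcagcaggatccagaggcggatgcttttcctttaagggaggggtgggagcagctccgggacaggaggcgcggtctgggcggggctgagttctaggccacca

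*Gsto1* levels were 105, 127, 116, 114 and 124 FPKM in males 1 to 5, and 155, 142, 169, 197 and 187 FPKM in females 1 to 5. Every female was above every male, with female 2 the lowest of the females. The means were 117 ± 8.86 FPKM in the males and 170.0 ± 22.2 FPKM in females (fitted log2 fold change 0.53 ± 0.10 SE, or 1.44-fold, limma adjusted p = 0.0211, exact permutation p = 0.00794). Its call was lost without male 1, male 3, male 4 or female 5, with limma adjusted p of 0.0540 to 0.0639. The gene (chr1:267607418-267617387, plus strand, Rnor_6.0) overlaps *Gsto2* over its whole length on the same strand. *Gsto2* was listed at 1.19 ± 0.197 FPKM in the males and 1.53 ± 0.387 FPKM in females.

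**Figure D2:**
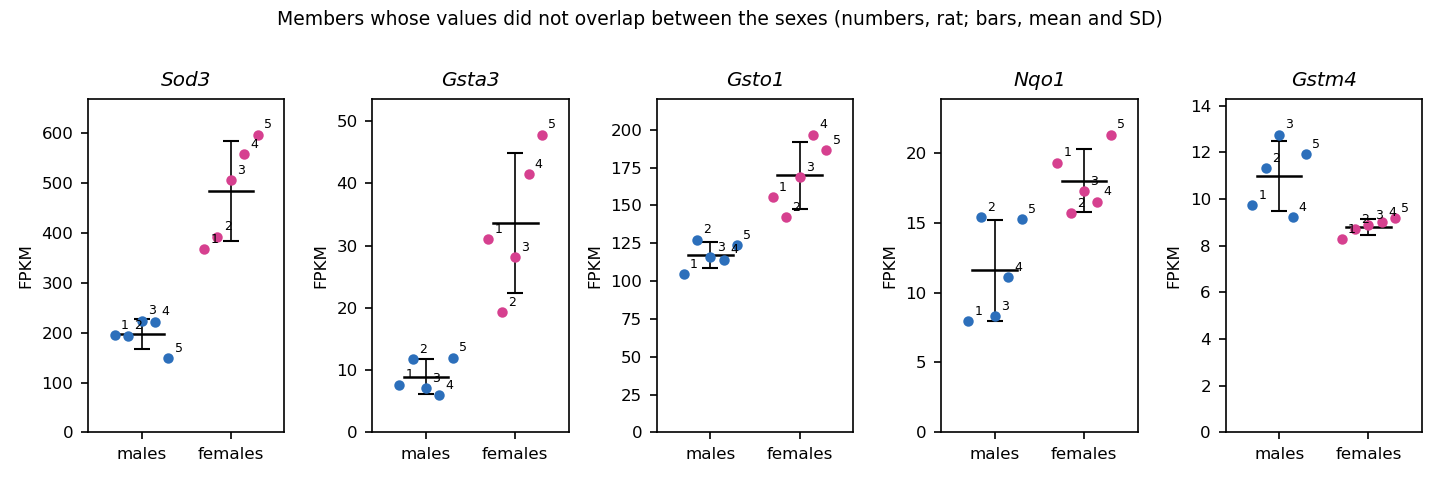
FPKM of each rat for the 5 members whose values did not overlap between the sexes, with rats numbered within each sex and bars giving mean and SD of 5 rats. *Sod3*, *Gsta3*, *Gsto1* and *Nqo1* were higher in every female than in every male, and *Gstm4* was lower, at 8.30 to 9.18 FPKM in females against 9.21 to 12.8 FPKM in males.

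The ranges of 5 members did not overlap between the sexes, 4 with higher and 1 with lower values in females, where 5.10% of all genes tested had ranges that did not overlap (2.50% higher and 2.60% lower). Besides the 3 above these were *Nqo1*, the quinone reductase that is a classical NRF2 target, and *Gstm4*, a mu class transferase. *Nqo1* was at 7.96, 15.4, 8.30, 11.1 and 15.3 FPKM in males 1 to 5 and at 19.3, 15.7, 17.2, 16.5 and 21.3 FPKM in females 1 to 5. Males 2 and 5 came close to female 2, the lowest female. *Nqo1* did not pass over all genes (log2 fold change 0.68 ± 0.19 SE, interval 0.25 to 1.10, limma adjusted p = 0.108). *Gstm4* was at 9.73, 11.3, 12.8, 9.21 and 11.9 FPKM in males and at 8.30, 8.71, 8.90, 9.01 and 9.18 FPKM in females. Females were close together while male 4 nearly touched them, and *Gstm4* did not pass either (-0.30 ± 0.10 SE, limma adjusted p = 0.156). Without female 2, 9 members had ranges that did not overlap, beside 8.68% of all genes. The additional 4 were *Gpx2* (lower in females) and *Txndc11*, *Prdx6* and *Txnrd3* (higher values in females), and *Txndc11*, an endoplasmic reticulum thioredoxin-domain protein, then passed with a log2 fold change of 0.45 and limma adjusted p = 0.0444, as 3.13% of all genes did.

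Of the alpha class, 1 of 5 tested members, *Gsta3*, passed. *Gsta5* had the highest mean of the class, with 191, 315, 234, 454 and 328 FPKM in the males and 259, 338, 194, 264 and 256 FPKM in the females (log2 fold change -0.17, interval -0.67 to 0.32, limma adjusted p = 0.767). *Gsta4* was at 181 ± 29.4 and 221 ± 30.8 FPKM and *Gsta2* at 53.4 ± 36.0 and 53.5 ± 32.4 FPKM. *Gsta2* varied most within a sex, with male 4 at 116 FPKM and the other males at 26.5 to 48.0 FPKM, and female 2 at 103 FPKM with female 3 at 28.1 FPKM. The class median log2 fold change was 0.02, beside -0.01 over all genes tested.

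Mean levels of the 5 tested members of the mu class, per length, were 0.730 to 23.5 FPKM over the 10 rats, beside 21.3 to 283 FPKM in the alpha class. In the mu class 0 of 5 tested members passed (1 at unadjusted p under 0.05 and 0 by limma-voom). Its highest mean was that of *Gstm7*, at 21.0 ± 1.19 FPKM in the males and 26.0 ± 5.81 FPKM in females (log2 fold change 0.28, limma adjusted p = 0.327). Female 2 was highest in *Gstm7* at 35.9 FPKM and in *Gstm1* at 30.9 FPKM. *Gstm5* had 3.28 FPKM in female 3 and 3.25 FPKM in female 4, and 0.0562 to 0.209 FPKM in the other 8 rats, where 1 to 3 reads were counted. *Gstm3*, *Gstm6* and 1 of the 2 identifiers of *Gstm6l* lie within the span of *Gstm7* on the same strand, so the counts of these near copies are uncertain.

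Other soluble transferases reached higher levels. *Gstt3*, a theta class enzyme, was at 664 ± 109 FPKM in the males and 637 ± 214 FPKM in the females (log2 fold change -0.11, interval -0.60 to 0.38), and *Gstp1*, the pi class enzyme, was at 377 ± 69.7 and 477 ± 79.3 FPKM (0.34, interval -0.01 to 0.69, limma adjusted p = 0.328). *Gstk1*, the mitochondrial and peroxisomal kappa enzyme, and *Gstz1*, which acts in tyrosine breakdown, had 4 of 5 females above the highest male without passing over all genes (log2 fold changes 0.39 and 0.48, limma adjusted p = 0.118 and 0.132). *Gstt2* went the other way in value, at 22.7 ± 5.80 FPKM in the males and 14.1 ± 6.42 FPKM in females (-0.78 ± 0.29 SE, limma adjusted p = 0.216). The median over the 8 tested members of this group was 0.33, and 6 of the 8 had a log2 fold change above 0, as 48.8% of all genes did. Among microsomal transferases *Mgst3* was highest, at 303 ± 114 and 350.2 ± 52.0 FPKM (0.29, limma adjusted p = 0.640), and 0 of 3 passed by limma, with 0 at unadjusted p under 0.05 and 0 by limma-voom.

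**Figure D3:**
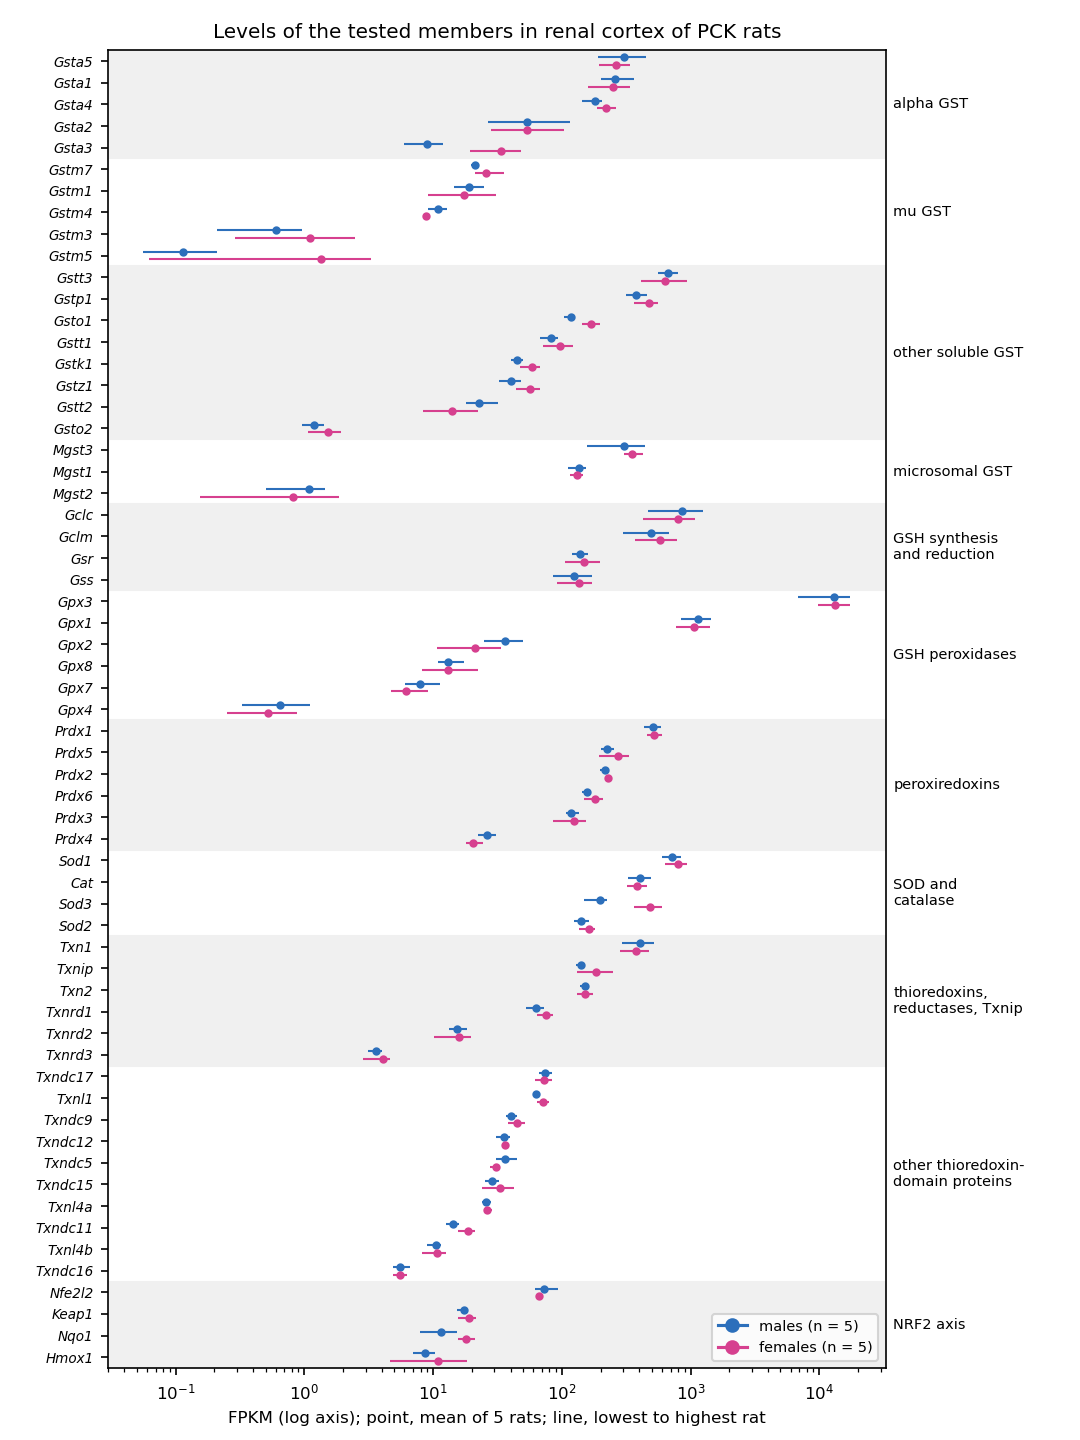
FPKM of the 61 tested members on a log axis, grouped by role, with points for the mean and lines from the lowest to the highest of 5 rats in each sex. *Gpx3* stands at 13040 FPKM in the males and 13211 FPKM in the females, above all other members, and lines of most members overlap between the sexes.

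None of the 4 genes of glutathione synthesis and reduction passed by limma, with 0 at an unadjusted p under 0.05 and 0 by limma-voom, and the synthesis genes differed widely between rats of the same sex. *Gclc* was at 490.1, 895, 464, 1255 and 1163 FPKM in males 1 to 5 and at 898, 518, 429.5, 1061 and 1088 FPKM in females 1 to 5. *Gclm* was at 370.1, 497, 298, 676 and 622 FPKM in the males and at 696, 367, 386, 672 and 787 FPKM in the females. *Gss* was at 87.1, 119, 84.9, 165 and 171 FPKM in males and at 159.7, 91.9, 96.5, 159.9 and 173 FPKM in females. In all 3 genes, which lie on chromosomes 8, 2 and 3, the same 6 rats (males 2, 4 and 5 and females 1, 4 and 5) were above the same 4 rats (males 1 and 3 and females 2 and 3). For *Gclc* the nearest values across that gap were 895 and 518 FPKM, for *Gclm* 497 and 386 FPKM, and for *Gss* 119 and 96.5 FPKM. The order was read from these same values, and the share of all genes that show it was not counted. The rats were not grouped by these values, and no test was made on them.

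Within a sex the coefficient of variation of *Gclc* was 43.1% in males and 38.4% in females, beside a median of 13.6% and 17.99% over the 57 members with a mean of at least 1 FPKM. Between the sexes the log2 fold changes were -0.07 for *Gclc* (interval -0.87 to 0.72, limma adjusted p = 0.953), 0.24 for *Gclm* (-0.39 to 0.86, adjusted p = 0.751) and 0.13 for *Gss* (-0.43 to 0.70, adjusted p = 0.858). *Gsr*, which recycles oxidised glutathione, did not share that order, with 139, 159.9, 148, 125 and 121 FPKM in the males and 122, 107, 158, 198 and 166 FPKM in the females.

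**Figure D4:**
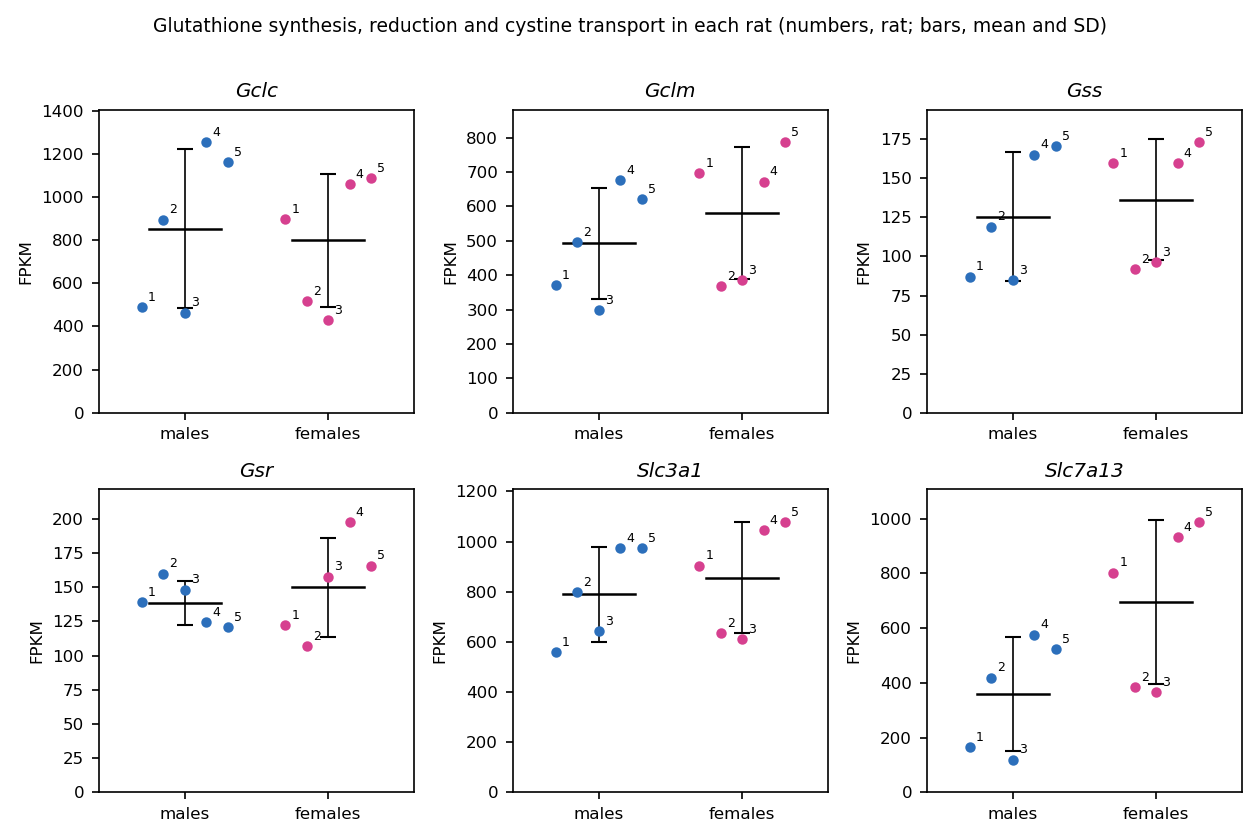
FPKM of each rat for *Gclc*, *Gclm*, *Gss*, *Gsr*, *Slc3a1* and *Slc7a13*, with rats numbered within each sex and bars giving mean and SD of 5 rats. Rats 2, 4 and 5 of the males and 1, 4 and 5 of the females are the higher ones of their sex in every panel except that of *Gsr*.

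*Slc3a1*, the heavy chain of the proximal tubule cystine transporter, had the same higher and lower rats, with 560 to 642 FPKM in males 1 and 3 against 798 to 975 FPKM in males 2, 4 and 5. In females it was at 637 and 611 FPKM in rats 2 and 3 against 904 to 1079 FPKM in rats 1, 4 and 5. Of the 13 genes of cysteine supply and glutathione transport in the table it alone had this order, and its light chain *Slc7a9*, at 124.7, 136, 160.0, 135 and 81.3 FPKM in males 1 to 5, did not. Of the 9 proximal tubule markers 1, *Ggt1*, had it. So did 1, *Hagh*, of the 18 glutaredoxins and other glutathione-dependent enzymes. *Hagh* was at 102, 126, 101, 115 and 121 FPKM in males 1 to 5 and at 126, 68.9, 111, 159.5 and 161 FPKM in females 1 to 5. *Slc7a13*, a cystine carrier of the late proximal tubule, was named after its values were seen, and within each sex it split the rats in the same way. It was at 164, 419, 120.1, 576 and 525 FPKM in the males and at 803, 384, 366, 933 and 988 FPKM in the females. The other 3 late proximal tubule markers, *Slc5a1*, *Slc1a1* and *Atp11a*, did not split the rats so. *Slc1a1*, for instance, was at 53.5, 63.9, 69.3, 64.7 and 50.3 FPKM in males 1 to 5. The part of cell makeup in the order of the rats was not tested.

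The promoters of the 3 synthesis genes are given because their levels shared an order of rats, and the letters searched stood in 1 of the 3. They are *Gclc* at chr8:87510226-87510475 (plus strand), *Gclm* at chr2:213031885-213032134 (plus strand) and *Gss* at chr3:164538307-164538556 (minus strand), all GRCr8. In *Gclm* capitals mark the letters on the opposite strand, beginning 172 bases before the start.
Gclc: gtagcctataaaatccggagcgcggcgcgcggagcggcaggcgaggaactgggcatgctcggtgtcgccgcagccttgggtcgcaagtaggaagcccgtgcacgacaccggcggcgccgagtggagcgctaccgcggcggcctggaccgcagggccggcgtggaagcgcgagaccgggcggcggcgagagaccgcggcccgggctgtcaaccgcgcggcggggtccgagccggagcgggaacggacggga
Gclm: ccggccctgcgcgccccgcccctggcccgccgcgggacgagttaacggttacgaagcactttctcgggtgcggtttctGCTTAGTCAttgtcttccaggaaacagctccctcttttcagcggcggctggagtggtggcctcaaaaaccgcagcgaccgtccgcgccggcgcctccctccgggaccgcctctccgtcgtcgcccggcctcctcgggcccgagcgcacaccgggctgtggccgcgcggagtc
Gss: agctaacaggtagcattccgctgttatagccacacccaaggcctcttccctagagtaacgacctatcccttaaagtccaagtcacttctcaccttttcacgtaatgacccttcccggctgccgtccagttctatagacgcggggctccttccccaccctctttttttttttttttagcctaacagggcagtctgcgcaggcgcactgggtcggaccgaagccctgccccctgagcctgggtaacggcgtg

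Among glutathione peroxidases, *Gpx3*, the secreted plasma enzyme, was the most abundant nuclear transcript per gene length in the table, with a mean of 13125 FPKM over the 10 rats and rank 1. It took 1.08% to 2.51% of all reads in males and 1.51% to 2.31% in females. *Gpx3* was at 12537, 17380, 14500, 13899 and 6882 FPKM in males 1 to 5 and at 9718, 13356, 13669, 17413 and 11900 FPKM in females 1 to 5. Male 5 was far below the other males, and the ranges of the sexes overlapped (log2 fold change 0.06, interval -0.76 to 0.87, limma adjusted p = 0.965). *Slc5a2*, a glucose carrier that marks the early proximal tubule, was also lowest in male 5, at 43.1 FPKM against 123 to 164 FPKM in males 1 to 4. Male 5 was the lowest male in 7 of the 9 proximal tubule markers, the others being *Ggt1*, at 405 FPKM against 223 to 408 FPKM, and *Aqp1*, at 421 FPKM against 368 to 525 FPKM. Their part in the value of *Gpx3* was not tested. *Gpx1*, the cytosolic enzyme, followed at 1137 ± 251.9 and 1065 ± 280.2 FPKM.

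Of the 6 tested peroxidases 0 passed by limma, with 1 at an unadjusted p under 0.05 and 0 by limma-voom. That 1 was *Gpx2*, an epithelial peroxidase known as an NRF2 target, described here because of its values. It was at 24.96, 32.5, 34.6, 40.7 and 49.97 FPKM in males 1 to 5 and at 22.8, 33.6, 20.7, 10.7 and 18.4 FPKM in females 1 to 5. Of the females, 4 were below the lowest male and female 2 lay among the males (log2 fold change -0.84 ± 0.27 SE, limma adjusted p = 0.157, exact permutation p = 0.0238). Without female 2 the ranges did not overlap, with a log2 fold change of -1.02 and limma adjusted p = 0.0542.

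Markers of injured tubule are given beside *Gpx2* because some of the same rats were at the ends of both. *Lcn2*, a secreted protein of injured tubule, was at 52.1, 41.7, 49.9, 84.6 and 93.3 FPKM in males and at 58.5, 83.9, 33.9, 5.85 and 20.8 FPKM in females. *Havcr1*, a marker of proximal tubule injury, was at 35.2, 28.0, 28.3, 105 and 68.1 FPKM in males and at 55.2, 23.4, 24.8, 3.38 and 12.6 FPKM in females. Female 4 was the lowest of the 10 rats in *Gpx2*, *Lcn2* and *Havcr1*, and male 5 was the highest in *Gpx2* and *Lcn2*. Summed over the 5 injury markers, levels were 3279 to 7180 FPKM in the males and 902 to 5572 FPKM in the females. Most of each sum came from *Spp1* and *Vcam1*, so it says little of *Lcn2* and *Havcr1*, and *Krt20* was at 0 to 0.215 FPKM. Of the 4 tested injury markers 0 passed by limma, with 1 at an unadjusted p under 0.05 and 0 by limma-voom, and all 4 had a log2 fold change below 0. Their part in the values of *Gpx2* was not tested.

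**Figure D5:**
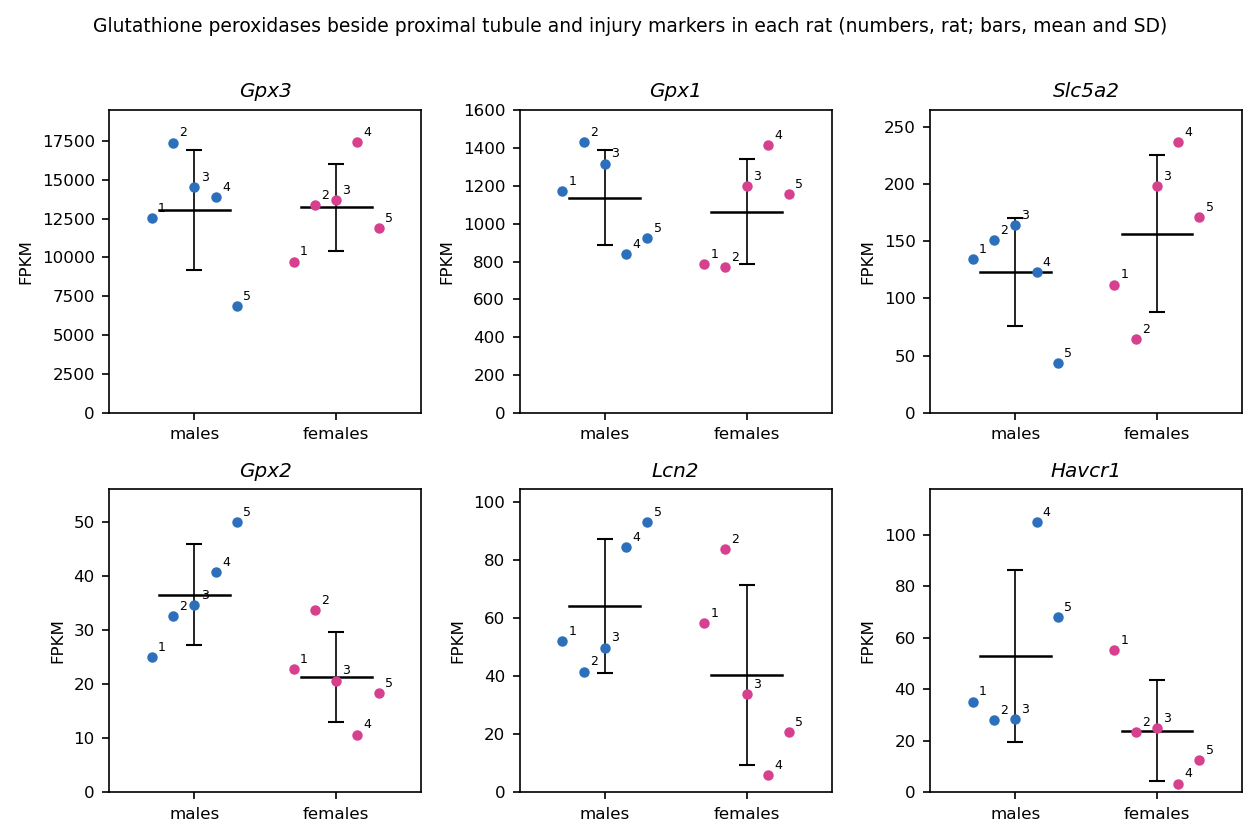
FPKM of each rat for *Gpx3*, *Gpx1* and *Gpx2* beside the proximal tubule marker *Slc5a2* and the injury markers *Lcn2* and *Havcr1*, with rats numbered within each sex and bars giving mean and SD of 5 rats. Male 5 is the lowest male in *Gpx3* (6882 FPKM) and *Slc5a2* (43.1 FPKM), and female 4 is lowest in *Gpx2* (10.7 FPKM), *Lcn2* (5.85 FPKM) and *Havcr1* (3.38 FPKM).

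*Gpx7* and *Gpx8*, peroxidases of the endoplasmic reticulum, were at 7.91 ± 2.10 and 13.1 ± 2.65 FPKM in the males and at 6.18 ± 1.96 and 13.1 ± 5.76 FPKM in females. *Gpx4*, the enzyme that reduces lipid peroxides, was listed at 0.249 to 1.11 FPKM from 4 to 19 reads per rat, and its row overlaps *Sbno2* on the other strand. *Gpx5*, *Gpx6* and *Gstm6* were listed at 0 in all 10 libraries. So was *Fth1*, the ferritin heavy chain that cells use widely, while the light chain *Ftl1* was at 3900 FPKM in males, so a listed 0 is not read here as absence of the transcript. A further 6 members had reads in some library but a mean under 0.1 FPKM: *Gstt4*, *Txndc2*, *Txndc8*, both rows of *Gstm6l* and 1 row of *Gsto2*.

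All 6 peroxiredoxins were tested and 0 passed by limma, with 1 at an unadjusted p under 0.05 and 0 by limma-voom. *Prdx1*, the main cytosolic member, had 434, 593, 473, 500.2 and 538 FPKM in the males and 467, 463, 512, 596 and 573 FPKM in the females (log2 fold change 0.04, interval -0.23 to 0.31, limma adjusted p = 0.913). *Prdx5*, *Prdx2*, *Prdx6* and *Prdx3* had means from 118 to 271 FPKM and overlapping ranges. *Prdx4*, of the endoplasmic reticulum, was at 26.2 ± 3.38 FPKM in the males and 20.6 ± 3.30 FPKM in females, with 3 females below the lowest male (-0.35 ± 0.12 SE, limma adjusted p = 0.194).

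Of the 6 thioredoxins, reductases and *Txnip*, 0 passed by limma, with 1 (*Txnrd1*) at an unadjusted p under 0.05 and 0 by limma-voom. *Txn1*, the cytosolic thioredoxin that feeds the peroxiredoxins, was at 404 ± 81.5 and 374 ± 88.2 FPKM (log2 fold change -0.12, limma adjusted p = 0.817). Its cytosolic reductase *Txnrd1* was at 63.1 ± 7.74 and 75.2 ± 8.66 FPKM (0.25, limma adjusted p = 0.288). The mitochondrial reductase *Txnrd2* (0.02, adjusted p = 0.972) and *Txnrd3* (0.15, adjusted p = 0.673) were lower in level, with means of 15.7 and 3.85 FPKM over all rats. *Txnip*, the protein that binds and inhibits thioredoxin, was at 142, 128, 144, 140.0 and 152 FPKM in the males and at 165, 251, 235, 135 and 132 FPKM in the females. Males were close together, and females 2 and 3 stood above all other rats (0.33, interval -0.07 to 0.72, limma adjusted p = 0.422).

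Of the 10 tested thioredoxin-domain proteins outside that group 0 passed by limma, with 2 at an unadjusted p under 0.05 and 0 by limma-voom, and *Txndc17* was highest, at 74.4 ± 6.45 and 72.3 ± 9.73 FPKM (-0.05, limma adjusted p = 0.874). The 4 genes of the NRF2 axis did not pass by limma or limma-voom, and 1, *Nqo1*, had an unadjusted p under 0.05. *Nfe2l2* was at 72.1 ± 12.8 FPKM in the males and 67.1 ± 2.59 FPKM in females (-0.09, interval -0.33 to 0.15, limma adjusted p = 0.754). *Keap1*, its inhibitor, was at 17.3 ± 1.29 and 18.9 ± 2.29 FPKM (0.12, interval -0.10 to 0.33, adjusted p = 0.625). *Hmox1*, the haem-degrading enzyme, was at 6.94 to 10.3 FPKM in the males and 4.62 to 18.5 FPKM in females, with female 2 highest and female 4 lowest (0.24, limma adjusted p = 0.753).

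Across all 61 tested members the median log2 fold change was 0.09, and 40 (65.6%) lay above 0, beside a median of -0.01 and 48.8% of all genes. By role the medians were 0.11 for synthesis and reduction, 0.17 for superoxide dismutases and catalase, 0.18 for the NRF2 axis, 0.28 for mu class transferases (-0.22 when members under a mean of 1 FPKM were left out) and -0.19 for glutathione peroxidases. They were 0.08 for peroxiredoxins, 0.09 for thioredoxins, reductases and *Txnip*, 0.04 for other thioredoxin-domain proteins and -0.05 for microsomal transferases. These medians carry no test.

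Genes of the surrounding pathway were counted from 7 lists. Over all genes tested, 1.26% passed limma as higher and 1.14% as lower in females, and 15.7% had an unadjusted p under 0.05. By limma-voom 1.08% were higher and 1.80% lower, and 48.8% had a limma log2 fold change above 0. The lists were not tested as sets. Of 10 tested genes of glutathione breakdown 1 was higher in females, with 3 at an unadjusted p under 0.05 and 1 by limma-voom. It was *Chac1*, which cleaves glutathione in the cytosol. *Chac1* was at 0.619, 0.446, 0.619, 0.371 and 0.383 FPKM in males and at 1.18, 3.26, 2.42, 0.901 and 2.80 FPKM in females, without overlap, from 9 to 15 reads per male and 25 to 72 per female (log2 fold change 1.79 ± 0.34 SE, limma adjusted p = 0.0193). Of 20 tested peroxide and superoxide sources 1 was higher and 1 was lower, with 6 at an unadjusted p under 0.05, 2 by limma-voom, and 15 with a log2 fold change below 0 (median -0.23). *Acox2*, a peroxisomal oxidase of branched chains and bile acid precursors that releases hydrogen peroxide, was at 3.25 ± 0.716 FPKM in the males and 10.03 ± 3.97 FPKM in females (1.53 ± 0.26 SE, adjusted p = 0.0111). *Hao1*, a peroxisomal glycolate oxidase that also releases it, was at 10.3 ± 4.34 FPKM in the males and 2.63 ± 0.745 FPKM in females (-1.85 ± 0.32 SE, adjusted p = 0.0117). Both had ranges that did not overlap.

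The remaining 5 lists had no gene past the limma test. These were 12 tested genes of cysteine supply and glutathione transport (2 at unadjusted p under 0.05 and 1 by limma-voom), 18 glutaredoxins and other glutathione-dependent enzymes (2 and 0) and 10 genes of NADPH supply (2 and 0). The 18 NRF2 partners and targets and the 10 genes of selenoprotein synthesis and selenium supply had 0 and 0. *Slc7a11*, the cystine importer that many cells use to feed glutathione synthesis, had a mean under 0.1 FPKM.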

How the data were processed

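Kidney RNA was sequenced from PCK rats, 5 of each sex, in 1 library each. The deposited table held FPKM values per gene, which the authors made from reads trimmed with fastp, aligned with HISAT2 2.0.5 and counted with featureCounts 1.5.0-p3 (StringTie 1.3.3b is also named in the submitters' processing notes), with coordinates on Rnor_6.0. Whether the libraries were directional and counted by strand was not given in the sources used here. Median-ratio factors of the deposited values were the same in all 10 libraries. The values were thus already on that scale and not on that of total reads, and the alternative with median-ratio scaling repeats the main fit.

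FPKM values were converted back to reads with the deposited gene length, and 100.0% of values came out whole within 0.01 reads. These recovered reads numbered 13912569 to 20285911 per library, and counting error is largest for genes with few of them. The 17631 genes whose mean reached 0.1 FPKM were tested between the sexes on log2(FPKM + 0.1) with limma 3.58.1 (R 4.3.3, moderated variance with trend), with Benjamini-Hochberg adjustment over all of them, so that fold changes of low genes are understated. Limma-voom on recovered reads was an alternative and called 508 genes, beside 424. Single members were also compared by two-sided exact permutation of mean FPKM (scipy 1.17.1). Each rat is a separate animal, and errors are SD over 5 rats unless stated. The limma procedure was tested on simulated data before use.

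The members and the gene lists were chosen with earlier results of these data known. Members named were those past the test, those with ranges that did not overlap, the highest of each role, and *Gclc*, *Gclm*, *Gss*, *Gsr*, *Cat*, *Sod1* to *Sod3*, *Nqo1*, *Hmox1*, *Nfe2l2*, *Keap1*, *Txnip* and *Txnrd1* to *Txnrd3*. Of pathway lists, genes past the test were named. Other genes in the text, among them *Gpx2*, *Gsta2*, *Gstm5*, *Prdx4*, *Txndc11* and *Slc7a13*, and the late and early proximal tubule lists were added after their values were seen. Promoter sequences came from RefSeq (GRCr8), where 58 of 68 member symbols had a window. Alternatives covered pseudocount, filter, scaling, variance model, replicate block and each library left out.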

Additional observations from a re-analysis of the deposited data

Results flagged for a closer look

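Each tested member was examined for a rat far from the other 4 of its sex, which gave 122 groups of 5, and 3 were flagged. Chance flags about 1 in 20 such groups. *Gsta2* in male 4, at 116 FPKM, stood apart from the next male at 48.0 FPKM and the lowest at 26.5 FPKM, a gap of 0.758 of the range of the males. *Gstm7* in female 2, at 35.9 FPKM, stood above the next female at 25.4 FPKM, a gap of 0.715 of the range of the females. *Txnrd3* in female 2, at 2.85 FPKM, stood below the next female at 4.22 FPKM, a gap of 0.767 of the range. Female 2 was also the library with 26.8% mitochondrial reads, and the part of that in these values was not tested.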

How the results depend on the processing

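Results were recomputed under 21 other settings, of which 10 left out 1 library each. *Sod3* and *Gsta3* passed in all 21, with limma adjusted p of 0.000866 to 0.0208 and 0.00157 to 0.0249. *Gsto1* passed in 16 (log2 fold change 0.45 to 0.59, limma adjusted p 0.00477 to 0.0861). *Nqo1* (limma adjusted p 0.0738 to 0.238) and *Gstm4* (0.0994 to 0.311) passed in 0. Members with ranges that did not overlap numbered 5 to 9 when a library was left out, with 9 without female 2. Genes called over the whole table numbered 266 to 550 when a library was left out, beside 424 with all 10.

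Replicate numbers were shared by the sexes in the labels, but same-numbered rats did not deviate together. The correlations of their deviations were -0.06, -0.10, 0.07, 0.04 and -0.02, and 1 library correlated best with its own number. With the replicate number as a block, 2 members and 231 of all genes passed, *Gsto1* being the one lost.

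The median log2 fold change of the mu class was -0.22 with a minimum mean of 1 FPKM. With a library left out, the median of the alpha class ranged from -0.090 to 0.31, and that of the NRF2 axis from 0.10 to 0.31. Scaling to total reads moved the median of all genes to -0.08. Some log2 fold changes near 0 changed sign, in 8 named members and by at most 0.16 past 0. *Gpx3* was at -0.019 with total-read scaling, -0.15 with quantile normalization and -0.016 by limma-voom. *Prdx1* was at -0.034, -0.021 and -0.034 in the same settings. *Txnrd2* was at -0.054 with total-read scaling and -0.053 by limma-voom. With a library left out the ranges were -0.16 to 0.18 for *Gpx3*, -0.26 to 0.13 for *Gclc*, -0.013 to 0.0995 for *Prdx1*, -0.066 to 0.18 for *Txnrd2*, -0.14 to 0.00997 for *Nfe2l2*, -0.019 to 0.20 for *Gsr*, -0.27 to 0.028 for *Gstt3* and -0.11 to 0.00327 for *Txndc17*. The cause of these changes was not tested. Few reads limit members near the minimum, such as *Gpx4* and *Gstm5*, and 15 members overlap another gene in position.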

Other observations

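By their descriptions, 10 genes outside the symbols used also belong to these families, and 9 of them were tested, with 1 higher and 1 lower in females. Both lie beside the alpha class transferases on chromosome 9 (Rnor_6.0), and they were named after their values were seen. *RGD1562107*, described as similar to a class alpha transferase (chr9:27311886-27324158, plus strand), was at 0, 0, 0.313, 0.0729 and 0.200 FPKM in males 1 to 5 and at 2.95, 3.31, 1.96, 6.11 and 4.43 FPKM in females 1 to 5. Every female was above every male, from 0 to 3 reads per male and 22 to 72 per female. Summed over rats these were 6 and 205 reads, a ratio of 35.3 after scaling for the FPKM that 1 read is worth in each library, with an exact 95% interval of 15.9 to 97.3 that covers counting error only (limma adjusted p = 0.000427, and 0.000306 to 0.00818 over 21 other settings).

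*LOC501110*, described as similar to transferase A1 (chr9:27475273-27511176, minus strand), went the other way. It was at 12.6, 12.5, 12.4, 11.0 and 11.7 FPKM in males 1 to 5 and at 5.69, 6.74, 7.19, 7.93 and 6.78 FPKM in females 1 to 5, without overlap. The means were 12.0 ± 0.669 and 6.87 ± 0.811 FPKM (log2 fold change -0.81 ± 0.10 SE, limma adjusted p = 0.00113, and 0.000317 to 0.0249 over 21 other settings). Both are close copies of other alpha class genes, so how reads were split among them is uncertain.

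Among further marker lists, *Cubn* of 9 proximal tubule markers, *Avpr2* of 5 principal cell markers and *Ttr* of 3 tested hepatocyte markers passed as higher in females, and *Cidec* of 2 tested adipocyte markers as lower. By limma-voom 0 of the proximal tubule and 0 of the principal cell markers passed, 2 of each list had an unadjusted p under 0.05 by limma, and 5 of the 9 proximal tubule markers had a log2 fold change below 0. Of the 4 late proximal tubule markers *Slc5a1* passed as higher, with all 4 at an unadjusted p under 0.05, 2 above and 2 below 0, and 2 called by limma-voom. Of the 4 early proximal tubule markers 0 passed by limma, with 1 at an unadjusted p under 0.05 and 0 by limma-voom. Macrophage markers summed to 152 to 304 FPKM in the males and 76.1 to 204 FPKM in females, with 0 of 6 past limma, 1 at an unadjusted p under 0.05 and 0 by limma-voom.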
